A study of Drosophila melanogaster with 21 samples.

Results

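RNA of DL1 cells, a Drosophila melanogaster cell line, was compared between 3 cultures in which pum was knocked down by RNA interference (Pum RNAi) and 3 control cultures (LacZ RNAi), 6 of the 21 samples of the study. All 17555 genes with a FlyBase gene ID in the authors' deposited table of the RNAi experiment were included, without choosing any by its values. Of these, 8596 had an adjusted p in that table and counted as tested. Both groups were wild-type DL1 cells. Per the labels, 20 µg of double-stranded RNA was given in a bath of 60 min, against pum in one group and against LacZ, a bacterial gene that these cells lack, in the other, and the harvest followed 48 h later. The study also held Not1 RNAi and Pop2 RNAi cultures, which share the LacZ RNAi controls, and 2 clonal pum knockout isolates with their parental line (WT) as control. The labels call the cultures of a group biological replicates without saying more of their origin, so p-values measure the spread between cultures. The authors may have fitted all RNAi groups together. For pum the deposited standard errors were 0.387, 0.386 and 0.386 in Pum RNAi, Not1 RNAi and Pop2 RNAi against LacZ RNAi. For Msp300 all of them were 0.313, and such near-equal values are what a shared fit would give. Under a shared fit the p-values also rest on the spread within Not1 RNAi and Pop2 RNAi. Poly(A) RNA was sequenced by ClickSeq, in which azido-nucleotides end cDNA at random positions and a click reaction adds the adapter.

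Pumilio is a sequence-specific RNA-binding protein of the PUF family. It binds a short element in the 3' untranslated region of mRNAs and represses them, through blocked translation and through deadenylation and decay for which it recruits the CCR4-NOT complex, whose subunits include Not1 and the deadenylase Pop2. In flies it was first known for repressing hunchback in the posterior embryo, and later for work in germline stem cells and neurons.

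The deposited values are means over the 3 libraries of a group, with each library's counts scaled by its own size factor (normalized counts). The whole reads of each library could be worked out from the digits of the means for 10013 of the 10221 genes above 0 in LacZ RNAi and for 10289 of 10673 in Pum RNAi. The other genes were too abundant for that search and have no values per library; the highest means split were 5988 in LacZ RNAi and 3079.5 in Pum RNAi. Libraries are called A, B and C within a group in falling order of size factor, and the letters pair nothing across groups. The size factors were 1.02, 0.913 and 0.461 in LacZ RNAi and 1.61, 1.49 and 1.38 in Pum RNAi, and the split genes held 3925330, 3471286 and 1922545 reads in LacZ RNAi and 4854779, 4454933 and 4151042 in Pum RNAi. LacZ RNAi library C was thus the shallowest, and it also stood apart. Across the 5501 genes whose mean reached 50, the log2 values of libraries A and B of LacZ RNAi correlated at r = 0.982, those of C with A and B at 0.869 and 0.867, and the 3 Pum RNAi libraries among themselves at 0.988 to 0.995. Results are therefore given with library C, as the authors tested them, and without it, from a limma fit of the other 2 LacZ RNAi libraries and the 3 Pum RNAi libraries over 6318 genes.

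The knockdown was read first from pum itself (3R, 9066343 to 9237682, minus strand, build dm6). It gave 1665, 1421 and 2178 normalized reads in LacZ RNAi libraries A, B and C and 533, 525 and 570 in Pum RNAi libraries A, B and C. Every Pum RNAi library lay below every LacZ RNAi library. In the authors' deposited table pum fell by 1.69 ± 0.39 on the log2 scale (SE, DESeq2 adjusted p = 0.00575), and limma without library C gave a fall by 1.50 ± 0.09 (SE, limma adjusted p = 5.06e-08). In the same table the genes targeted in the other knockdowns were not called, with log2 fold changes of -0.01 ± 0.18 for Not1 and 0.16 ± 0.28 for Pop2 (DESeq2 adjusted p = 0.988 and 0.902). In RNA from whole cultures, fewer cells of a kind and less RNA per cell cannot be told apart.

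Few genes passed the authors' test. The authors' deposited table called 63 of the 8596 tested genes at an adjusted p below 0.05 (0.733%), 44 higher in Pum RNAi (0.512%) and 19 lower (0.221%). Of these, 23 changed at least 2-fold, 17 higher and 6 lower. The raised genes had a median log2 fold change of 0.83 in that table and reached 1.79, and the lowered genes, pum included, had a median of -0.72. Among the raised genes were cell fate and receptor genes (bib, amx, numb, fz, dnt, tkv), membrane transporters and enzymes of glycan and peptide processing, the ribonucleotide reductase subunit RnrS and the sphingolipid regulator ORMDL. Among the lowered genes were enzymes of carbon metabolism (Men, PyK, GlyP), the cullin exchange factor Cand1, the leucyl-tRNA synthetase LeuRS and the cytoskeletal genes Msp300, Pax and zip.

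**Figure D1:**
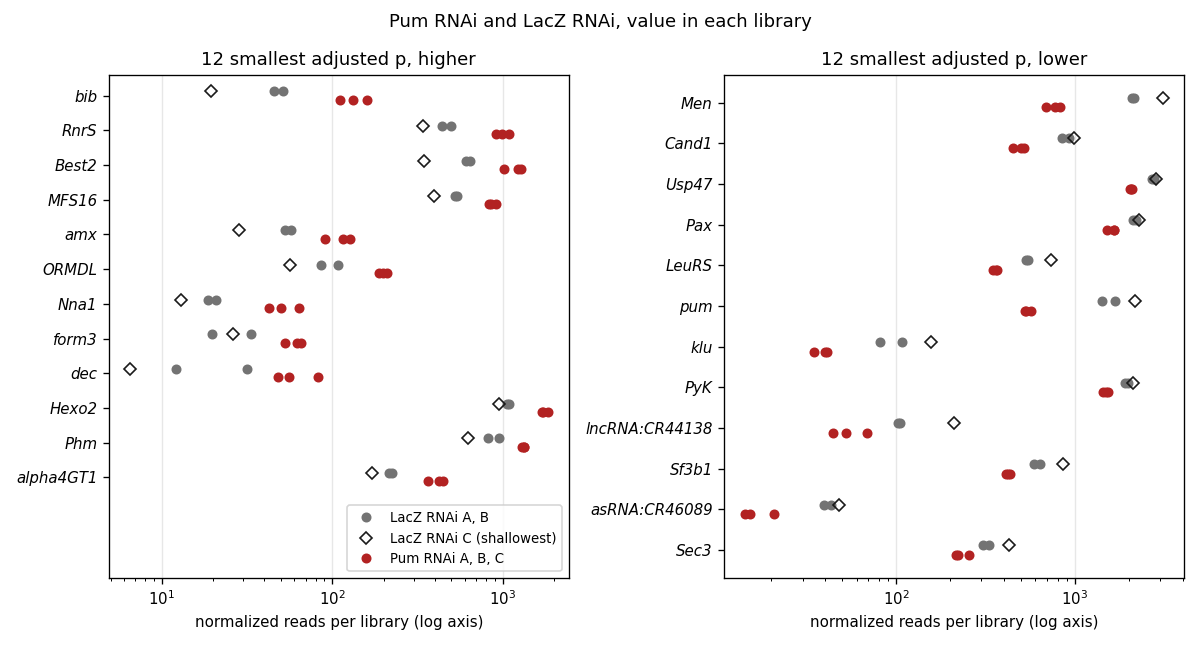
Normalized reads in each library (log axis) for the 12 raised and the 12 lowered genes with the smallest adjusted p among genes whose libraries could be split. Grey points are LacZ RNAi libraries A and B, open diamonds LacZ RNAi library C, red points the 3 Pum RNAi libraries; in each of the 24 genes the groups do not overlap.

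The libraries could be split for 43 of the 44 raised genes and for 15 of the 19 lowered genes, and in all 58 the 3 Pum RNAi libraries lay on one side of the 3 LacZ RNAi libraries. Over the 8216 tested genes with split libraries, 20.2% were apart in that way, 10.9% higher and 9.27% lower. Within LacZ RNAi, library C was the lowest of the 3 in 33 of the 43 raised genes, between the others in 5 and the highest in 5. It was the highest of the 3 in all 15 lowered genes. The position of library C thus added to the fold change of most called genes. The authors' test was not rerun without library C, and limma was fitted without it instead.

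Without library C all 58 genes passed at a limma adjusted p below 0.05, the largest being 0.00608 among the raised and 0.0217 among the lowered. Their direction could not change, since their libraries do not overlap. Passing was favoured in advance too, since the 58 were called from these same libraries, so it is not a separate test of them. The log2 fold changes without library C were a median 0.877 times those of the authors' deposited table for the raised genes and 0.879 times for the lowered ones. These ratios hold the change from DESeq2 to limma as well as the loss of library C. Over all 6318 genes, the same fit called 965 (15.3%), 449 higher (7.11%) and 516 lower (8.17%). These limma fits left out genes whose mean was under 20, a minimum chosen after the results without it had been seen. With no minimum the fit without library C called 233 of 8216 genes (2.84%), 116 higher and 117 lower, and 46 of the 58 passed. With library C kept, limma called 0 genes, with 570 at an unadjusted p below 0.05. The number of genes that pass in limma therefore rested on 1 control library and, without it, on the minimum. Gp150 among the raised genes and Msp300, sle, nocte and zip among the lowered genes could not be split and were not tested without library C.

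**Figure D2:**
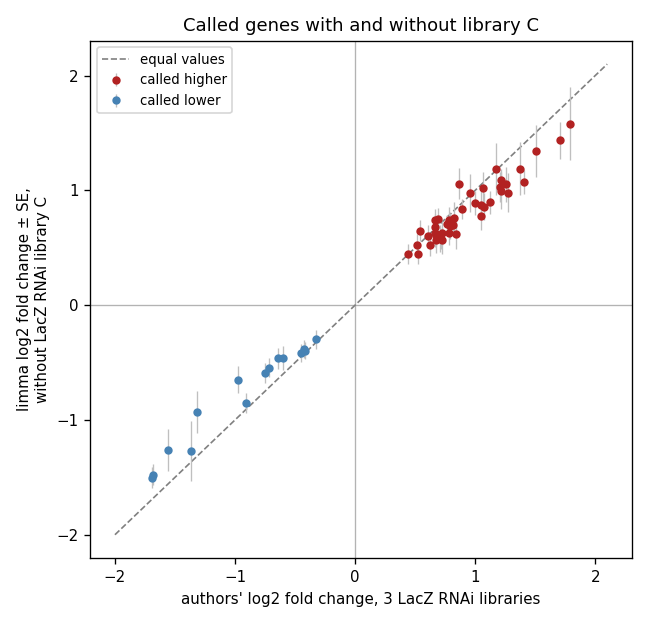
Log2 fold change of the 58 called genes with split libraries, as in the authors' deposited table with all 3 LacZ RNAi libraries (x axis) and from limma without LacZ RNAi library C (y axis, bars are SE). Points lie near the dashed line of equal values and mostly nearer to 0 than it, for the 43 raised and the 15 lowered genes alike.

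Genes of Notch signalling were among those called higher. bib (2L), which codes for big brain, an aquaporin-family protein needed for Notch-dependent choice of neural fate, gave 45.3, 51.5 and 19.5 normalized reads in the LacZ RNAi libraries and 159, 132 and 111 in the Pum RNAi libraries. Its lowest Pum RNAi library was above 2 times the highest control. The authors' deposited table gave bib a log2 fold change of 1.71 ± 0.27 (SE, DESeq2 adjusted p = 6.00e-07), and without library C it was 1.44 ± 0.16 (limma adjusted p = 7.06e-05). amx (almondex), a transmembrane protein that acts in Notch signalling, gave 57.1, 52.6 and 28.2 normalized reads in LacZ RNAi and 116, 127 and 91.2 in Pum RNAi. Its rise was 1.21 ± 0.25 as a log2 fold change in the authors' deposited table (DESeq2 adjusted p = 0.000728) and 1.00 ± 0.16 without library C. numb, an inhibitor of Notch that is handed to 1 daughter of dividing neural precursors, gave 302, 249 and 178 normalized reads in LacZ RNAi and 421, 429 and 423 in Pum RNAi. The 3 Pum RNAi libraries of numb were close together and above all controls. In the authors' deposited table numb rose by 0.78 ± 0.20 on the log2 scale (DESeq2 adjusted p = 0.0165). Of the 21 tested genes of the Notch list these 3 passed, all higher (0.512% of all tested genes were called higher). The list median was 0.14 against -0.02 over all tested genes. bib and amx were known to be called when that list was made, so its counts and median are not a test of Notch genes. Without library C, limma called 4 of 15 higher and 2 lower, against 7.11% and 8.17% of all genes, the added ones being spdo (0.28) higher and mib1 (-0.42) and H (-0.32) lower on the log2 scale.

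A few genes of other signalling pathways were called higher. fz, the Frizzled receptor of Wnt and planar polarity signalling, gave 110, 112 and 69.4 normalized reads in LacZ RNAi and 212, 223 and 181 in Pum RNAi, and it was the only gene called among 28 tested of the Wnt list, whose median was -0.06. Without library C limma called 1 of 18 genes of that list higher and 3 lower (7.11% and 8.17% of all genes), with a median of -0.15. The authors' deposited table gave fz a log2 fold change of 1.05 ± 0.25 (DESeq2 adjusted p = 0.0102). dnt (doughnut), a Ryk-family Wnt receptor that was not on that list, gave 109, 120 and 47.7 normalized reads in LacZ RNAi and 186, 215 and 192 in Pum RNAi. Its 3 Pum RNAi values were all above the highest control, and the authors' deposited table had it at 1.04 ± 0.25 on the log2 scale (DESeq2 adjusted p = 0.00751). tkv, a type I receptor for the BMP ligand Dpp, rose less, from 116, 124 and 75.9 normalized reads to 175, 192 and 167 (0.72 ± 0.19 as a log2 fold change in the authors' deposited table, DESeq2 adjusted p = 0.0332). Raf, the kinase that passes the signal from Ras to the MAPK cascade, gave 230, 205 and 256 normalized reads in LacZ RNAi and 370, 348 and 369 in Pum RNAi. Library C was here the highest control, and Raf rose by 0.66 ± 0.18 on the log2 scale with it, in the authors' deposited table (DESeq2 adjusted p = 0.0294), and by 0.74 ± 0.10 without it. Egfr, the EGF receptor, gave 276, 273 and 93.3 normalized reads in LacZ RNAi and 367, 364 and 375 in Pum RNAi. All its Pum RNAi libraries were above the controls, but Egfr was not called in the authors' deposited table (log2 0.76 ± 0.30, DESeq2 adjusted p = 0.31), and it passed without library C at a log2 of 0.43 (limma adjusted p = 0.00619).

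RnrS, the small subunit of ribonucleotide reductase, which makes deoxynucleotides for DNA synthesis, had the same adjusted p as bib, the smallest among raised genes. It gave 497, 439 and 343 normalized reads in LacZ RNAi and 993, 1084 and 912 in Pum RNAi, so that the groups were far apart. The authors' deposited table gave RnrS a log2 fold change of 1.22 ± 0.19 (DESeq2 adjusted p = 6.00e-07), and limma without library C gave 1.09 ± 0.09 (adjusted p = 7.26e-06). It was the only called gene among 42 tested on the list of nucleotide supply and DNA replication, whose median was -0.05. Without library C limma called 4 of 41 genes of that list higher and 2 lower (7.11% and 8.17% of all genes). Cdc7, the kinase that fires replication origins, rose by 0.44 ± 0.10 as a log2 fold change in the authors' deposited table (DESeq2 adjusted p = 0.00843), the smallest rise of any called gene. None of the 38 tested genes of the cell cycle list was called by the authors' test, with 1 higher and 4 lower at an unadjusted p below 0.05 (4.29% of all tested genes were higher at that level and 4.69% lower). CycB, a mitotic cyclin whose mRNA is a known Pumilio target in the germline, gave 669, 591 and 581 normalized reads in LacZ RNAi and 598, 639 and 644 in Pum RNAi, and its groups overlapped. Without library C limma called 4 of 36 cell cycle genes lower and 0 higher, near the 8.17% of all genes called lower, among them the phosphatase gene stg (-0.44 on the log2 scale) and the kinase gene polo (-0.38).

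The next raised genes are described by what their products do, without a list behind them. Best2, of the bestrophin family of chloride channels, gave 642, 612 and 347 normalized reads in LacZ RNAi and 1226, 1283 and 1013 in Pum RNAi. MFS16, a transporter of the major facilitator family, gave 525, 537 and 397 in LacZ RNAi and 909, 831 and 852 in Pum RNAi. In both genes every Pum RNAi library was above every control, and the authors' deposited table gave log2 fold changes of 1.13 ± 0.21 for Best2 and 0.82 ± 0.15 for MFS16 (DESeq2 adjusted p = 0.00013 and 0.000145). A pair of galactose-related genes was called higher in that table, alpha4GT1, a galactosyltransferase (1.00 ± 0.23), and Ugalt, which carries UDP-galactose into the Golgi (1.07 ± 0.28). Hexo2, a hexosaminidase, gave 1054, 1090 and 948 normalized reads in LacZ RNAi and 1721, 1836 and 1696 in Pum RNAi. Phm, which amidates peptide hormones, and isoQC, a glutaminyl cyclase that modifies the first residue of peptides, had log2 fold changes of 0.72 ± 0.16 and 0.83 ± 0.19 in the authors' deposited table. The tetraspanins Tsp3A (0.71) and Tsp66E (0.67), the SNARE protein gene Snap25 (0.67), and Gp150 (0.85), a leucine-rich-repeat glycoprotein of the membrane, were also called higher there.

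Metabolic genes lay on both sides. ORMDL, the fly member of the family that holds back serine palmitoyltransferase in yeast and mammals, gave 85.7, 108 and 56.4 normalized reads in LacZ RNAi and 188, 197 and 208 in Pum RNAi. In the authors' deposited table its log2 fold change was 1.21 ± 0.25 (DESeq2 adjusted p = 0.000728), and it was the only called gene among 20 tested lipid genes. Without library C limma called 1 of 16 lipid genes higher and 4 lower (7.11% and 8.17% of all genes). Gpdh1, glycerol-3-phosphate dehydrogenase, rose from 691, 842 and 594 normalized reads to 1089, 1097 and 1101. Sirup, an assembly factor of respiratory complex II, rose by 0.96 ± 0.23, Pex13, of the peroxisomal import machinery, by 0.67 ± 0.16, and Jheh2, a juvenile hormone epoxide hydrolase, by 0.69 ± 0.19 as a log2 fold change in the authors' deposited table.

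The strongest call of the whole comparison was a fall. Men (3R, 12713103 to 12722442, minus strand), the malic enzyme that turns malate into pyruvate and yields NADPH, gave 2088, 2151 and 3104 normalized reads in LacZ RNAi and 775, 689 and 825 in Pum RNAi. The Pum RNAi libraries were all far below the lowest control. The authors' deposited table had Men at -1.68 ± 0.22 on the log2 scale (DESeq2 adjusted p = 1.70e-10), a 3.20-fold fall, and without library C it was at -1.48 ± 0.09 (limma adjusted p = 5.06e-08). Mdh1, the cytosolic malate dehydrogenase, gave 454, 471 and 486 normalized reads in LacZ RNAi and 654, 688 and 591 in Pum RNAi. Its libraries did not overlap either, in the other direction, but Mdh1 was not called in the authors' deposited table (log2 0.46 ± 0.18, DESeq2 adjusted p = 0.3) and passed without library C (0.48, limma adjusted p = 0.00319).

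PyK, pyruvate kinase, which ends glycolysis, gave 1985, 1900 and 2104 normalized reads in LacZ RNAi and 1537, 1497 and 1432 in Pum RNAi. GlyP, glycogen phosphorylase, gave 3125, 3367 and 3432 in LacZ RNAi and 2734, 2664 and 2519 in Pum RNAi. Both were lower in every Pum RNAi library, and in the authors' deposited table they fell by 0.42 ± 0.10 and by 0.32 ± 0.08 on the log2 scale (DESeq2 adjusted p = 0.00575 and 0.0221). PyK was the only called gene of 12 tested on the glycolysis list, whose median was -0.28. At an unadjusted p below 0.05 the list had 5 members lower and 0 higher (4.69% and 4.29% of all tested genes). Without library C limma called 3 of 9 lower, where 8.17% of all genes were called lower: PyK (-0.38), Ldh, lactate dehydrogenase (-0.47), and Pfk, phosphofructokinase (-0.43), and none of the 9 was above 0. Pcyt1, the rate-setting enzyme of phosphatidylcholine synthesis, fell by 0.65 ± 0.17 in the authors' deposited table (DESeq2 adjusted p = 0.034), from 1068, 935 and 1419 normalized reads to 692, 697 and 792.

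Of 20 aminoacyl-tRNA synthetases, which load amino acids onto tRNAs, 1 was called and it was lower. LeuRS gave 549, 532 and 738 normalized reads in LacZ RNAi and 362, 364 and 349 in Pum RNAi, and the groups were well apart. It was the only synthetase called in the authors' deposited table, at -0.75 ± 0.16 on the log2 scale (DESeq2 adjusted p = 0.00308). All 20 tested members had a log2 fold change below 0, with a median of -0.42 against -0.02 over all tested genes, and in 14 of the 20 the 3 Pum RNAi libraries were below all 3 controls (9.27% of all tested genes with split libraries). LacZ RNAi library C was a median 0.33 above A and B in these genes on the log2 scale. Without it the median was -0.26, all 20 were still below 0 and limma called 9 lower, where 8.17% of all genes were called lower. Among the 9, MetRS gave 228, 223 and 252 normalized reads in LacZ RNAi and 161, 172 and 146 in Pum RNAi, and IleRS gave 683, 710 and 727 and then 506, 571 and 499. Neither overlapped, and the authors' deposited table had them just short of its threshold (DESeq2 adjusted p = 0.0687 for MetRS and 0.0541 for IleRS). The other 11 synthetases were not called without library C.

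Single factors of protein turnover and of splicing were among the lowered genes. Cand1, which swaps the substrate receptors of cullin ubiquitin ligases, gave 842, 926 and 991 normalized reads in LacZ RNAi and 451, 518 and 501 in Pum RNAi, with a wide gap between the groups. The authors' deposited table gave it a fall by 0.91 ± 0.14 on the log2 scale (DESeq2 adjusted p = 6.00e-07), and the fall without library C was 0.85 ± 0.09. Cand1 was the only called gene of 26 tested ubiquitin ligases and cullin regulators. Without library C limma called 5 of 22 of them higher and 3 lower (7.11% and 8.17% of all genes), with a median of 0.00. Usp47, a deubiquitinase, changed little but evenly, from 2756, 2681 and 2822 normalized reads to 2071, 2039 and 2087. Its log2 fold change in the authors' deposited table was -0.41 ± 0.08 (DESeq2 adjusted p = 0.000728). Sf3b1, the largest subunit of splicing factor SF3b, fell by 0.72 ± 0.18 in that table, from 634, 591 and 855 normalized reads to 431, 421 and 409. It was the only called gene of 29 tested splicing factors, and without library C limma called 5 of 28 lower and 2 higher, against 8.17% and 7.11% of all genes, with Sf3b3 (-0.56) and Prp8 (-0.59) among the lower and U2af38 (0.43) and tra2 (0.53) the higher ones.

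The cytoskeleton held called genes on both sides. Nna1 (X), a carboxypeptidase of the family that trims tubulin tails, gave 20.7, 18.6 and 13.0 normalized reads in LacZ RNAi and 49.8, 42.3 and 63.7 in Pum RNAi. Kif3C, a kinesin, gave 15.8, 19.7 and 10.8 in LacZ RNAi and 44.2, 42.9 and 37.6 in Pum RNAi. Both had few reads, and both were above the controls in every Pum RNAi library, with log2 fold changes of 1.51 ± 0.30 and 1.38 ± 0.38 in the authors' deposited table. form3, a formin that builds actin filaments, gave 33.5, 19.7 and 26 in LacZ RNAi and 62.3, 53 and 65.1 in Pum RNAi. On the other side, Msp300, a giant nesprin that ties nuclei to the cytoskeleton, fell by 1.17 ± 0.31 in the authors' deposited table, where the group means were 15269 in LacZ RNAi and 6777 in Pum RNAi. Pax, paxillin of integrin adhesions, gave 2103, 2184 and 2293 normalized reads in LacZ RNAi and 1649.7, 1651 and 1513 in Pum RNAi, and zip, the heavy chain of nonmuscle myosin II, fell by 0.37 ± 0.10 in the authors' deposited table. Of the 23 tested genes on the list of microtubule motors and tubulins, Nna1 and Kif3C were called higher and none lower (0.512% and 0.221% of all tested genes). Both were known to be called when that list was made, so this count is not a test of the list. Without library C limma called 5 of 19 lower and 2 higher (8.17% and 7.11% of all genes). The lower ones were led by the dynein heavy chain gene Dhc64C (1367, 1187 and 558 normalized reads against 689, 755 and 747, log2 -0.80).

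Further called genes belonged to no such group. dec (X), which codes for the eggshell protein Defective chorion 1, had the largest rise, from 31.5, 12 and 6.51 normalized reads in LacZ RNAi to 82.8, 48.3 and 55.7 in Pum RNAi. The 3 control libraries of dec spread widely, and the authors' deposited table gave 1.79 ± 0.41 on the log2 scale (DESeq2 adjusted p = 0.00575). tutl (turtle), an immunoglobulin-superfamily protein of neurons, was steady within groups, with 567, 517 and 477 normalized reads in LacZ RNAi and 964, 974 and 968 in Pum RNAi. MP1, a serine protease of the melanization cascade, gave 63.0, 47.1 and 28.2 in LacZ RNAi and 111, 115.4 and 117 in Pum RNAi, and papi, a Tudor-domain partner of PIWI proteins, gave 621, 557 and 740 and then 930, 975 and 869. klu (klumpfuss), a zinc-finger transcription factor, fell from 108, 81.0 and 156 normalized reads to 39.9, 34.9 and 41.3, and in the authors' deposited table by 1.56 ± 0.35 on the log2 scale. Muc14A, a mucin, gave 3075, 2114 and 4428 normalized reads in LacZ RNAi and 1593, 1547 and 1742 in Pum RNAi. Sec3, an exocyst subunit, fell by 0.60 ± 0.15 in the authors' deposited table.

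Of 398 tested genes annotated as ncRNA 2 were called (0.503%, against 0.733% of all tested genes), both lower. lncRNA:CR44138 gave 105, 103 and 210 normalized reads in LacZ RNAi and 52.3, 44.3 and 68.8 in Pum RNAi, and asRNA:CR46089, an antisense RNA, gave 43.3, 39.4 and 47.7 and then 14.3, 20.8 and 15.2. The sources used here do not say whether counting took strand into account, so reads of an antisense RNA and of the gene it overlaps cannot be told apart. asRNA:CR46089 (3R, 23052916 to 23057984, plus strand) overlaps CG17119 (23054410 to 23058958, minus strand), which was called in the other direction: in the authors' deposited table the antisense RNA was at -1.36 and CG17119 at 0.68 as log2 fold changes. Of the genes named only by a CG number, 9 of 2992 tested were called, all higher (0.301%, against 0.733% of all tested genes). Without library C limma called 165 of 2148 such genes higher (7.68%) and 105 lower (4.89%), against 7.11% and 8.17% of all genes. The largest rises in the authors' deposited table were those of CG18622 (192, 232 and 75.9 normalized reads in LacZ RNAi and 434, 483 and 424 in Pum RNAi) and CG43759 (54.2, 39.4 and 13.0 against 92.8, 90.5 and 93.4). Their log2 fold changes were 1.41 and 1.27. By chromosome arm the called genes numbered 14 of 1490 on X (0.94%), 15 of 1617 on 2L, 9 of 1728 on 2R, 14 of 1634 on 3L, 10 of 2051 on 3R and 1 of 72 on chromosome 4.

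Among 7 tested partners and earlier reported targets of Pumilio, Egfr included, none was called by the authors' test. hb, the embryonic target, lay near the floor, with 9.85, 7.67 and 0 normalized reads in LacZ RNAi and 1.87, 2.68 and 5.79 in Pum RNAi, and para, the sodium channel gene, had no read in LacZ RNAi. mei-P26, a translational regulator of the germline, gave 3092, 2362 and 6358 normalized reads in LacZ RNAi and 1765, 1909 and 1867 in Pum RNAi, and it passed without library C (log2 -0.55, limma adjusted p = 0.00251). brat, which acts with Pumilio on hb, was at -0.17 ± 0.27 as a log2 fold change in the authors' deposited table (DESeq2 adjusted p = 0.882). None of the 9 CCR4-NOT subunits, the 29 mRNA decay factors or the 14 translational repressors and microRNA pathway genes was called there. At an unadjusted p below 0.05 these lists held 1, 0 and 0 higher and 0, 3 and 3 lower (4.29% and 4.69% of all tested genes). Without library C limma called 1 of 8 CCR4-NOT subunits lower and, against 8.17% of all genes, 6 of 27 decay factors, among them the decapping scaffold gene Ge-1 (-0.27) and the nonsense-mediated decay helicase gene Upf1 (-0.27), and 3 of 9 repressors lower, among them gw (-0.31), which codes for the GW182 partner of Argonaute. After a trend on gene length was also removed from each library, 1 decay factor and 0 repressors were called lower.

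Several gene lists changed side when library C was left out. The median log2 fold change of 79 tested cytosolic ribosomal protein genes was -0.54 in the authors' deposited table. In the 28 of them that could be split, library C was a median 1.62 above A and B on the log2 scale, and their limma median was -0.34 with it and 0.14 without it. RpL41 illustrated this, with 424, 488 and 2723 normalized reads in LacZ RNAi and 645, 556 and 1018 in Pum RNAi. By limma over the same members with and without library C, the median of 17 translation initiation and elongation factors went from -0.32 to 0.07, that of 63 mitochondrial ribosomal proteins from -0.18 to 0.08, that of 50 subunits of oxidative phosphorylation from -0.17 to 0.09 and that of 28 proteasome subunits from -0.05 to 0.14. None of these 5 lists had a called gene in the authors' deposited table. At an unadjusted p below 0.05 they held 1 gene higher and 13 lower (4.29% and 4.69% of all tested genes). These lists are therefore given without a direction. The medians of the synthetases (-0.42, -0.26 and -0.26) and of the glycolysis enzymes (-0.28, -0.23 and -0.24) were below 0 in the authors' deposited table, in limma without library C and with a length trend removed as well, over 20 synthetases each time and over 12, 9 and 9 glycolysis enzymes.

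**Figure D3:**
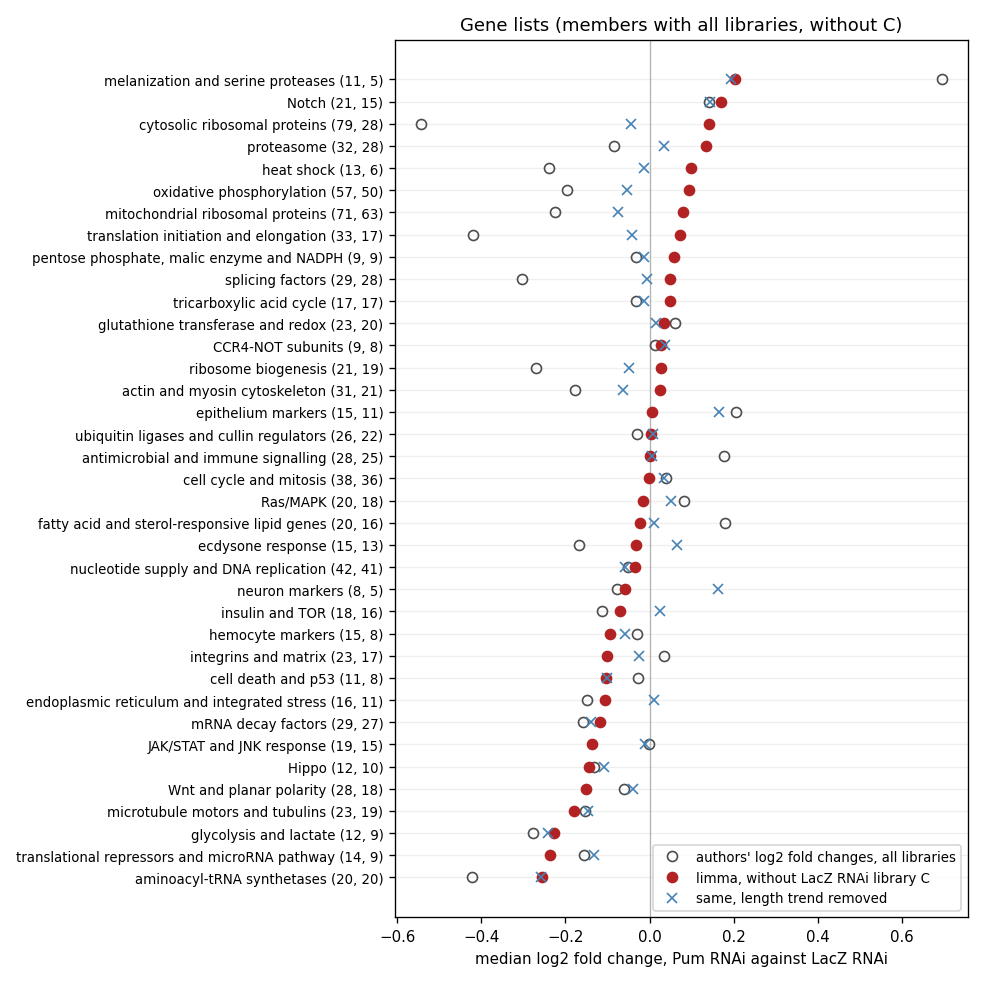
Median log2 fold change, Pum RNAi against LacZ RNAi, of the 37 gene lists with at least 5 members left without library C; numbers in brackets are members tested with all libraries and without library C. Open circles are the authors' values with all libraries, red points limma without LacZ RNAi library C, blue crosses the same with the length trend removed; cytosolic ribosomal proteins go from -0.54 (79 members) to 0.14 (28 members) and aminoacyl-tRNA synthetases from -0.42 to -0.26.

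The scale also bears on the lists. Dividing by the summed group means instead of the authors' size factors adds 0.30 to every log2 fold change, and 28 of the 43 list medians then change sign, so list medians are read against the median of all tested genes, which shifts with them. The glycolysis median was then 0.02 and that of the synthetases -0.13. All 63 called genes kept their sign under that scaling, the smallest falls (GlyP and zip) by less than 0.1.

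Other lists held single calls or none. Of 43 lists, 17 had any member called in the authors' deposited table. Antimicrobial and immune signalling (28 tested), JAK/STAT and JNK response (19), insulin and TOR (18), the Hippo pathway (12), heat shock (13), endoplasmic reticulum stress (16), redox defence (23), ecdysone response (15) and cell death (11) had none. At an unadjusted p below 0.05 they held 7 genes higher and 9 lower (4.29% and 4.69% of all tested genes). Without library C limma called 2 of 11 endoplasmic reticulum stress genes higher and 2 lower (7.11% and 8.17% of all genes). In that fit Ire1, the sensor of unfolded proteins, was lower (633, 663 and 386 normalized reads against 413, 429 and 461, log2 -0.58, limma adjusted p = 0.00082). Edem2, which helps clear misfolded glycoproteins, was higher (541, 525 and 310 against 735, 764 and 719, log2 0.47). RpI1 and RpI135, the 2 largest subunits of RNA polymerase I, were lower by 0.56 and 0.52, as falls on the log2 scale, both with and without library C. RpI1 gave 382, 412 and 399 normalized reads in LacZ RNAi and 238, 300 and 272 in Pum RNAi, and the groups of both genes were apart, but neither was called in the authors' deposited table (DESeq2 adjusted p = 0.0659 for RpI1). None of the 21 tested genes of the ribosome biogenesis list was called there, and its median was -0.27. Without library C limma called 5 of 19 of that list lower and 0 higher (8.17% and 7.11% of all genes). Its median was then 0.03, with 10 of the 19 above 0.

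Markers of cell types were mostly not called. Of 15 tested hemocyte markers none was called. Over those that could be split, their summed level was 5201.5, 5549 and 2987 normalized reads in LacZ RNAi libraries A, B and C. In Pum RNAi libraries A, B and C it was 5128, 4669.7 and 4996. Without library C limma called 1 of 8 hemocyte markers lower and 0 higher (8.17% and 7.11% of all genes). Of 9 germline and gonad markers dec was called, and of 8 neuron markers Snap25, both higher (0.512% of all tested genes were called higher). Without library C limma called 1 of 4 germline and gonad markers higher and 0 lower, and 1 of 5 neuron markers higher and 1 lower. Muscle (5 tested), epithelium (15) and fat body markers (2) had no called gene.

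Without library C the share of genes called differed by the length of the gene. Among genes of at least 8000 transcribed bases, limma without library C called 35.2% lower and 3.14% higher, and among those under 1000 bases 0.891% lower and 12.6% higher. In genes under 1000 bases the medians of the 3 Pum RNAi libraries were 0.15, 0.16 and 0.19 above the mean of LacZ RNAi A and B on the log2 scale, and in genes of at least 8000 bases they were 0.21, 0.24 and 0.13 below it. Library C deviated from A and B the same way and further, by 0.68 and -0.67, whereas A and B differed by -0.03 and 0.14. With library C among the controls the medians by length class were near 0, from -0.05 to 0.04. Whether this gradient belongs to the knockdown or to the libraries cannot be told apart with 2 and 3 libraries.

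**Figure D4:**
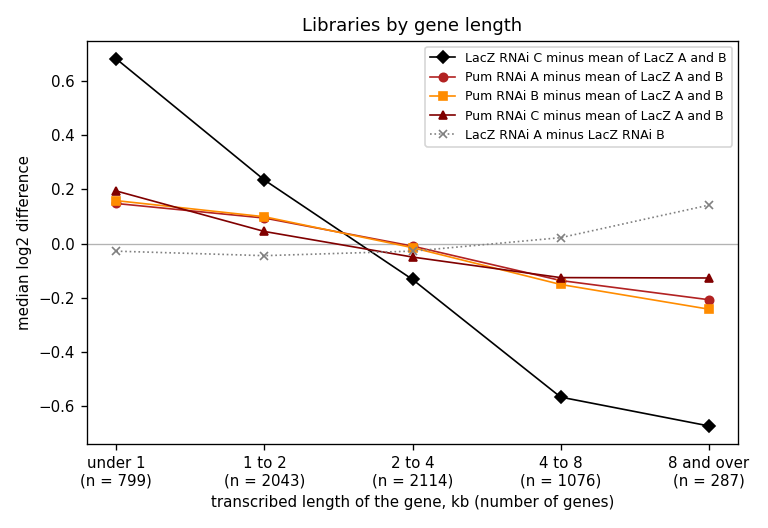
Median log2 difference from the mean of LacZ RNAi libraries A and B, by transcribed length of the gene, for LacZ RNAi library C (black), the 3 Pum RNAi libraries (red and orange) and, dotted, LacZ RNAi A minus B; numbers of genes stand under the axis. Library C runs from 0.68 in the shortest to -0.67 in the longest class and the Pum RNAi libraries run the same way over a smaller range.

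The same genes were tested with that gradient taken out. With the trend on log2 length removed from each library and library C left out, limma called 392 genes higher (6.2%) and 294 lower (4.65%). All 58 called genes with split libraries were among them, in the same direction. They were called from these same libraries, so this is not a separate test of them. pum itself, with 11798 transcribed bases, then fell by 1.28 on the log2 scale and Men by 1.44. Of the synthetases 7 of 20 were called lower with a median of -0.26, and of the glycolysis enzymes 5 of 9 with a median of -0.24. The proteasome subunits called higher before, 6 of 28 against 7.11% of all genes, were no longer called higher, and 1 of the 28 was called lower.

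The 3' untranslated region, where Pumilio binds, was compared by its longest annotated length. The raised genes had a median of 493.5 bases (44 genes), the lowered genes 389.5 (16 with an annotated region) and all tested genes 314 (8027 genes). By the authors' test 3 of 597 genes with at least 2000 bases were called higher and 2 lower, and in the class under 200 bases 9 and 2 of 2953. In these classes 0.838% and 0.373% were called, against 0.733% of all tested genes (0.512% higher and 0.221% lower). Without library C the direction of the classes depended on the length trend. Before its removal 15 of the 398 genes with at least 2000 bases were called higher (3.77%) and 66 lower, and after its removal 15.8% were called higher and 5.28% lower. In genes under 200 bases the shares after removal were 3.44% higher and 3.94% lower. Over all genes they were 6.2% and 4.65%, and in genes of at least 8000 transcribed bases 15.3% and 13.6%. The length of this region and that of the whole gene were not told apart. tutl, with a 3' untranslated region of 4423 bases, CG43759, with 3066, and Kif3C, with 2345, were the raised genes of the longest class. No genome sequence was used here, so binding elements of Pumilio in these regions were not looked for.

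The lowered genes had more reads than the raised ones. Of the 677 tested genes with at least 2000 normalized counts in LacZ RNAi (not divided by length), 9 were called lower and 1 higher, and of the 1904 with under 20, 0 lower and 3 higher. In these classes 1.48% and 0.158% were called, against 0.733% of all tested genes (0.221% lower and 0.512% higher). The lowered genes had a median LacZ RNAi mean of 1996, the raised genes of 150 and all tested genes of 151. The LacZ RNAi level is also the base of the fold change, which by itself places lowered genes higher and raised genes lower. In Pum RNAi the medians were nearer to each other, 763 for the lowered and 247 for the raised genes. The fall of GlyP by 0.32 as a log2 fold change in the authors' deposited table was the smallest called change.

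The 2 knockout clones, with WT controls of their own, were compared over the same genes. The pum RNA itself was lower in both in the authors' deposited table, by 1.55 ± 0.07 in clone 1 and 0.51 ± 0.07 in clone 2 as falls on the log2 scale, although a deleted stretch need not be one that the counted reads cover. Of the 44 raised genes, 23 were called higher in both clones, 4 lower in both, 1 in opposite directions and 6 in neither, where 17.5% of the genes tested in both clones were called higher in both and 19.7% lower in both. Of the 19 lowered genes, pum included, 13 were called lower in both clones, 1 higher in both and 4 in neither. The clones share their WT samples, so their calls are not independent of each other. Each clone is a single isolate.

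Men fell in all 3 settings, with -1.68 in Pum RNAi, -1.84 in clone 1 and -0.86 in clone 2 as a log2 fold change in the authors' deposited tables. bib rose in all 3, by 1.71, 1.26 and 1.08, and fz rose more in the clones (1.81 and 2.15) than in Pum RNAi (1.05), a difference with a Benjamini-Hochberg adjusted p of 0.0413 for clone 1 and 0.00211 for clone 2 (difference of the log2 fold changes over its SE, taken across all genes tested in both). dec rose by 2.58 and 5.41 in the clones, the latter beyond the 1.79 of Pum RNAi by 3.62 ± 0.46 (SE of the difference, adjusted p = 3.32e-13). numb (0.97 and 1.22), tutl (1.82 and 1.79), dnt (1.91 and 1.62), amx (0.94 and 1.11) and ORMDL (1.2 and 1.29) were higher in both clones of the authors' deposited table, and klu (-1.66 and -1.05), PyK (-1.0 and -0.55), Pcyt1 (-1.32 and -1.33), Pax (-0.80 and -0.95) and Muc14A (-6.38 and -1.67) lower in both.

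Other genes parted. Cand1, lower in Pum RNAi, was at -0.05 and 0.12 in the clones of the authors' deposited table, and the difference of 0.85 ± 0.16 and 1.02 ± 0.16 from its value in Pum RNAi had adjusted p-values of 1.53e-06 and 5.97e-09. RnrS was at 0.12 in clone 1 and 0.66 in clone 2 against 1.22, with adjusted p-values of the difference of 4.23e-06 and 0.0462. By limma without library C, Pum RNAi had RnrS at 1.09 and Cand1 at -0.85, and the difference was not tested with those values. CBP, called higher in Pum RNAi (152, 166 and 126 normalized reads against 246, 233 and 261), was lower in both clones (-3.48 and -2.30 as a log2 fold change in the authors' deposited table, adjusted p-values of the difference 1.08e-40 and 1.13e-23), and so were form3 (-3.95 and -0.69), CG33460 (-1.05 and -1.45) and CG13603 (-0.38 and -0.49). nocte was lower in Pum RNAi (-0.45) and higher in the clones (0.37 and 0.34). LeuRS and Sf3b1 were not called in either clone, with log2 fold changes between -0.18 and 0.08 in the authors' deposited table.

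**Figure D5:**
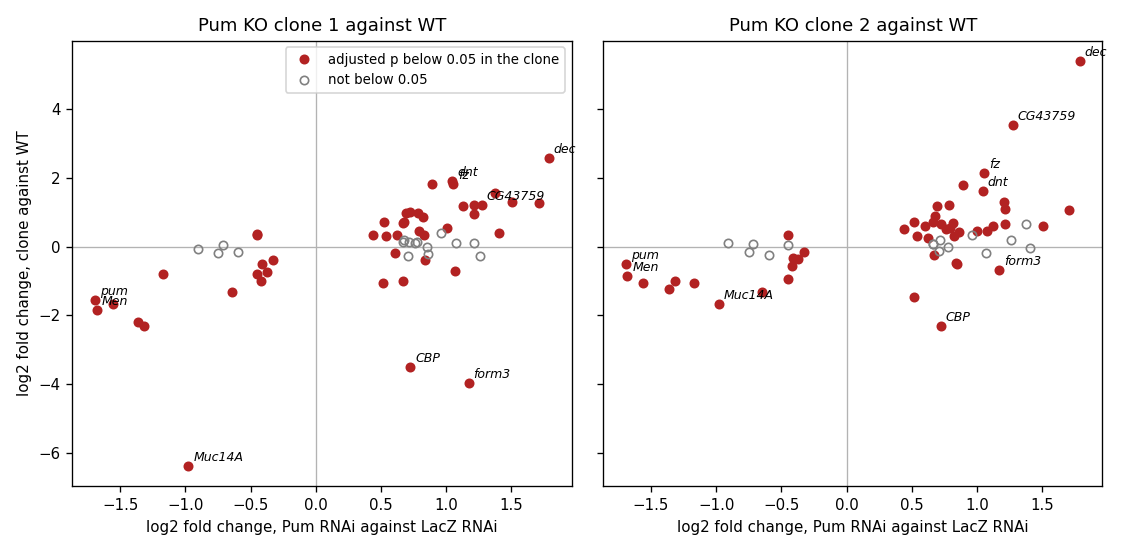
Log2 fold change of the 63 genes called in Pum RNAi (x axis) and their log2 fold change in each knockout clone against WT (y axis), both from the authors' deposited tables. Filled points have an adjusted p below 0.05 in the clone; most points lie in the lower left and upper right, with CBP and form3 in the lower right of both panels.

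Not1 RNAi and Pop2 RNAi were set against the same LacZ RNAi libraries, library C included, so their values are only placed side by side. The shallowest Not1 RNAi library had a size factor of 0.243, below the 0.461 of LacZ RNAi library C, and its part in the Not1 RNAi values was not tested. bib was at 1.71 in Pum RNAi, 6.60 in Not1 RNAi and 5.76 in Pop2 RNAi as a log2 fold change in the authors' deposited table. dec was at 1.79, 5.37 and 4.69 there, form3 at 1.17, 5.41 and 4.79, and Best2 at 1.13, 3.19 and 2.39. MFS16, at 0.82 in Pum RNAi, was at 0.15 in Not1 RNAi and 0.32 in Pop2 RNAi, and Ugalt, at 1.07, was at -0.07 and 0.14 in that table. Cand1 was at -0.91 in Pum RNAi, 0.24 in Not1 RNAi and -0.04 in Pop2 RNAi, and Pax at -0.45, 1.37 and 1.39. Men was at -1.68, -0.32 and -1.26, and klu at -1.56, -5.44 and -4.84 in the authors' deposited table. ORMDL, 1.21 in Pum RNAi, was at -0.36 and -0.25, and Hexo2, 0.76 in Pum RNAi, at -1.60 and -1.25 there.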

How the data were processed

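Per the submitters' processing notes, the tools were fastp 0.14.1, HISAT2 2.1.0, UMI-tools 1.0.1, featureCounts and DESeq2 1.23.110 with build dm6; their settings are not stated there. The authors deposited signal columns, which are group means of normalized counts per gene, per the file headers. The authors' deposited log2 columns are fold changes with standard errors, and the deposited p-value columns are those of their DESeq2 Wald test and its adjusted values. Knockout clones were deposited in a separate table with its own normalization. Of the RNAi values, 7 lines without a gene held 0.0470% of LacZ RNAi and 0.0561% of Pum RNAi normalized counts and were left out.

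Each group mean was searched for the only set of 3 whole read numbers over 3 size factors that gives all its digits. This held for 97.965% of the LacZ RNAi genes above 0 and for 96.4% of the Pum RNAi genes, and these hold 52.8% and 49.4% of the normalized counts, so their read sums are not library totals. The search was tested on simulated means. The planned count tests needed counts per library, and edgeR was not used. limma 3.58.1 (R 4.3.3) was fitted to log2(normalized count + 1) with a mean-variance trend, so its fold changes are on that scale, for genes with an adjusted p in the authors' table, split libraries and a mean of at least 20. That minimum, the removal of a trend on log2 length and 8 corrections to the gene lists were chosen after their results had been seen. Untranslated regions and gene types came from the annotation, which matched 17477 of 17555 genes by ID, 17461 of them with the same start and end.

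Genes were named by rank: the 12 smallest adjusted p per direction, the 10 largest changes with a mean of at least 20, up to 4 members of a list, and other called genes by function. The members and lists were chosen with earlier results of these data known, so some listed genes (bib, amx, Men, Cand1, ORMDL, Nna1, Kif3C, MP1, RnrS, Msp300, Sf3b1, LeuRS) were known to be called. Counts of called members in the lists that hold these genes are therefore not a test of those lists. No list was tested as a set.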

Additional observations from a re-analysis of the deposited data

How the results depend on the processing

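The 63 called genes became 28 at an adjusted p below 0.01, 107 below 0.1 and 23 with a change of at least 2-fold, while adjusting over every gene with a p-value gave 53. limma with every library called 0 genes (570 at an unadjusted p below 0.05), also 0 with a pseudocount of 5, with no minimum level or with the length trend removed (571, 747 and 710 unadjusted), and 1 with all RNAi groups in the fit. Leaving out 1 library at a time gave 0 to 965 genes, 965 without LacZ RNAi library C and 0 without any other, with 181 to 758 at an unadjusted p below 0.05. Without library C the count was 964 with a pseudocount of 5, 686 with the length trend removed, 233 with no minimum level and 561 with all RNAi groups and without the shallowest Not1 RNAi library too. Library quality weights over all RNAi groups, which gave library C a weight of 0.0569, called 1928 genes. The minimum level, the length trend and the last of these fits were chosen after seeing the data.

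With scaling by group totals none of the 63 called genes changed sign; in the limma fits the libraries of the 58 that could be split (57 with all RNAi groups) lie apart, which fixes their sign wherever no trend is removed. Without library C all 58 passed with a pseudocount of 1 or 5 and with the length trend removed, but 46 with no minimum level and 56 of 57 with all RNAi groups. Since the 58 were called from the same libraries, their passing is not a separate test. With library C kept, 0 of the 58 passed in the fits of LacZ RNAi and Pum RNAi, 1 of 57 with all RNAi groups and 57 of 57 with library quality weights. Scaling by group totals moved 27 of 43 list medians by more than the spread between libraries, and limma without 1 library moved 6 to 10 of 42 (8 without library C) from the authors' values over all tested members.

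No paired analysis was possible because the columns are group means and carry no replicate numbers. edgeR and DESeq2 on the split reads, and the search for Pumilio elements, were not run. Genes too abundant to split, which include most cytosolic ribosomal proteins, have no value without library C, and with 2 to 3 libraries a group the precision of each value is limited.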
